A study of Mus musculus with 2 samples.

Results

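The genes Runx1, Runx2 and Runx3, their shared partner Cbfb, and the corepressor genes Cbfa2t2, Cbfa2t3 and Runx1t1 were followed through the cell types of the mouse fetal liver. The members were taken by gene symbol, and all 7 were found among the 27998 genes of the count matrices, each under 1 gene identifier. The study sequenced single cells of 1 wild-type C57BL/6 liver (C57BL/6J in the supplementary methods) of embryonic stage E12.5 by droplet-based RNA sequencing. The liver was dissociated, and debris, dead cells and doublets were sorted out, before the cells were run as 2 technical replicate libraries. The deposited design text speaks of 2 suspensions, so it cannot be told from the sources whether the libraries also share every step before encapsulation. No allele, treatment or second age was compared.

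RUNX proteins bind DNA through their Runt domain, and CBFB, which does not touch DNA itself, joins each of them and strengthens that binding. RUNX1 is known for the emergence of blood stem and progenitor cells from endothelium and for the maturation of megakaryocytes and myeloid cells, RUNX2 for bone formation, and RUNX3 for T cell and sensory neuron development. CBFA2T3 (also called ETO2 or MTG16), CBFA2T2 (MTGR1) and RUNX1T1 (ETO or MTG8) form a family of corepressors that reach DNA through other factors, among them the TAL1 and GATA1 complex of erythroid cells, and RUNX1T1 was named for its fusion to RUNX1 in leukemia.

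The promoters of the Runx genes carry RUNX binding letters of their own, and these are shown because the 3 genes share a run of them. AACCACA, the letters that RUNX proteins bind, was searched on both strands (TGTGGTT on the other) in RefSeq windows of the GRCm38.p6 assembly that run from 250 bases before to 50 bases after each gene start. Each Runx gene had a window with a pair of matches whose starts were 8 bases apart, in capitals here within 30 bases written 5′ to 3′ on the strand of the gene.
Runx1, chr16:92826025-92826054, minus strand: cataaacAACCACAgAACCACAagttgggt
Runx2, chr17:44814583-44814612, minus strand: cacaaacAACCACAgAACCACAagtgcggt
Runx3, chr4:135120503-135120532, plus strand: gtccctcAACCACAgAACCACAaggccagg

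A run of 18 bases across the pair was identical in the 3 genes. The matches began at bases 28 and 36 after the start of Runx1, in a stretch annotated as exon and untranslated region. In Runx2 they began at bases 23 and 31, in an exon that holds untranslated and coding bases, and a further match lay 81 bases before the start. In Runx3 they began 135 and 127 bases before the start, outside annotated exons. Of 32851 windows of that length, 1731 (5.27%) held at least 1 match, 67 (0.204%) at least 2, and 5 (0.0152%) a pair spaced in this way on a strand. Besides the Runx genes these were Olfr24 and Gm16225, whose window covers the same bases of chromosome 4 as that of Runx3. The spacing counted was that of the pairs in the Runx genes, so their place among the 5 was given by the choice, and the share does not measure how unusual they are. Windows of Cbfb, Cbfa2t2 and Cbfa2t3 were searched as well, and Runx1t1 was not searched. The second windows of Runx1 and Runx3, which lie further into those genes, and all windows of these 3 partners held no match. UMI counts do not tell which promoter a transcript came from, so the sequences are a description only.

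In the GENCODE vM21 annotation of GRCm38, Runx1 lies on chromosome 16 (92601466 to 92826149, minus strand), Runx2 on chromosome 17 (44495987 to 44814797, minus strand) and Runx3 on chromosome 4 (135120652 to 135177990, plus strand). Cbfb lies on chromosome 8 (105170674 to 105217989, plus strand). Cbfa2t3 is on the same chromosome (122625141 to 122699109, minus strand), Cbfa2t2 on chromosome 2 (154436481 to 154539356, plus strand) and Runx1t1 on chromosome 4 (13743436 to 13893649, plus strand). No counted gene overlapped a member on its own strand.

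The cells kept by the authors numbered 5480 in library 1 and 5057 in library 2, with 51969226 and 62738015 unique molecular identifiers (UMIs, which mark captured RNA molecules) and medians of 6261 and 9774 UMIs per cell. The deposited table gives 9 cell types: hematopoietic stem and progenitor cells (HSPCs, spelled HPSC in the table and the plots), erythroid-committed progenitors (Ery), erythroblasts (Eryb), primitive erythroblasts (EryP), megakaryocytes (Mk), granulocytes (G), monocytes and Kupffer cells (Mo/KC), hepatoblasts (Hepa) and endothelial cells (EC). Ery was split by the table into Ery 1 and Ery 2, and Eryb into Ery 3 to Ery 6, which makes 13 groups of between 46 cells (EC) and 2559 cells (Ery 4). Of 27 marker genes, 23 were highest in their own type in both libraries, the exceptions being Epor, Gata1, Klf1 and Myb. Epor, Gata1 and Klf1 were all the markers taken for Ery, so no marker set Ery apart from every other type in both libraries. Over both libraries Klf1 was at 543 CPM in Ery and 592 CPM in Eryb, and Gata1 at 179 CPM in Ery and 242 CPM in megakaryocytes. Myb, taken for HSPCs, was at 114 CPM there and 128 CPM in granulocytes. Between the libraries, 31 barcodes were shared. Levels are UMIs of a gene per 1000000 UMIs of the group (CPM), and intervals are exact 95% intervals that cover counting error only, since cells are not replicates and the liver is 1 animal. The groups were made by clustering these same counts, so a difference between groups is a description, and no test between groups was made. Fewer transcripts of a gene and more transcripts of other genes per cell cannot be told apart on the CPM scale. This matters most in erythroblasts, where 8 globin genes took 22.3% of all UMIs in Ery 3 and 71.0% in Ery 6, against 2.23% in HSPCs.

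Runx1 was the leading Runx gene of every blood lineage with enough UMIs to count. In HSPCs it stood at 102 and 80.6 CPM in libraries 1 and 2, from 351 and 252 UMIs. Megakaryocytes had 92.2 and 90.7 CPM, from 71 and 92 UMIs. Granulocytes had 71.4 and 68.6 CPM. Over both libraries, HSPCs (84.6 to 99.4 CPM) lay above granulocytes (61.8 to 78.9 CPM), and the interval of megakaryocytes (77.9 to 106.5 CPM) overlapped both. Monocytes and Kupffer cells followed at 41.3 and 41.8 CPM, and Ery 1 at 21.7 and 26.3 CPM. Over both libraries these 2 groups lay apart from each other and from the granulocytes, and in library 2 the interval of monocytes and Kupffer cells (29.4 to 57.6 CPM) met those of its neighbours.

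After thinning every cell to 3600 UMIs, with shallower cells left out, a Runx1 UMI was found in 28.4% of HSPCs, 26.6% of megakaryocytes, 18.2% of granulocytes, 12.7% of monocytes and Kupffer cells, and 8.86% of Ery 1 cells. Hepatoblasts, which are not blood cells, had 2.85%. Thinning left out 33 megakaryocytes, 21 granulocytes, 10 monocytes and Kupffer cells, and 2 HSPCs. Without thinning, the share was 70.3% in HSPCs and 48.9% in megakaryocytes, whose medians were 15462 and 11585 UMIs per cell, and 10.9% in hepatoblasts with a median of 22346. Free RNA, measured in barcodes with 1 to 50 UMIs, held 23.8 and 14.8 CPM of Runx1 in libraries 1 and 2. At the largest share of free RNA that the adult beta-globin gene Hbb-bs allows in HSPCs, it would have given 9.30 of their 603 Runx1 UMIs. Hepatoblasts held 8 Runx1 UMIs and endothelial cells 3. Free RNA could have given at most 3.54 and 1.82 of them. These limits lie within the counting intervals of the observed counts (3.45 to 15.8 and 0.619 to 8.77).

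**Figure D1:**
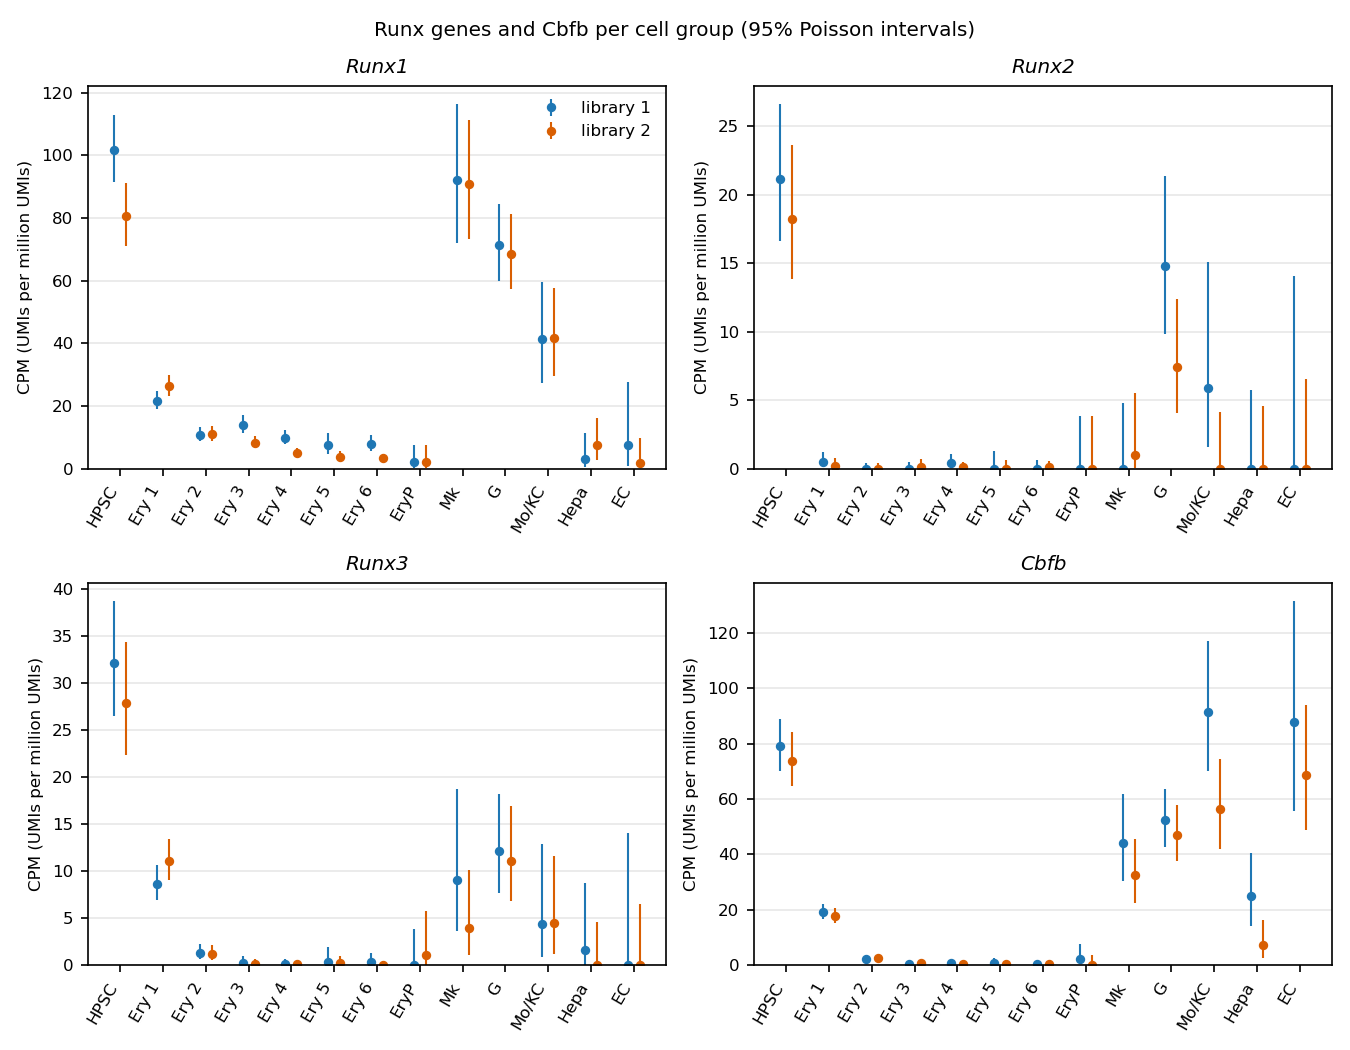
Levels of Runx1, Runx2, Runx3 and Cbfb in the cell groups, in CPM, with a point for each library and bars for exact 95% Poisson intervals (counting error only). Runx1 and Cbfb reach 91.7 and 76.7 CPM in HSPCs over both libraries, and Runx2 and Runx3 reach 19.8 and 30.1 CPM there, their highest groups.

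Runx2 was found mainly in HSPCs and granulocytes. HSPCs held 73 Runx2 UMIs in library 1 (21.2 CPM) and 57 in library 2 (18.2 CPM). Granulocytes held 28 and 14 UMIs, which is 14.8 and 7.38 CPM. Monocytes and Kupffer cells held 4 UMIs, all in library 1. In the erythroid lineage Ery 1 held 7 UMIs in 734 cells. None was found in 1016 Ery 2 cells, so at most 0.295% of them can be expected to hold a UMI. The 7432 erythroblasts held 6. The counts in Ery 1 and in every later erythroid group were within what free RNA could give if it made up 20% of their UMIs. On the opposite strand, Runx2 overlaps Supt3 and Runx2os1, which had 1061 and 58 UMIs in all kept cells, and whether the counting used strand is not given in the sources used here.

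Runx3 was highest in HSPCs, with granulocytes and Ery 1 next. It stood at 32.2 and 27.8 CPM in HSPCs (111 and 87 UMIs) and at 8.61 and 11.1 CPM in Ery 1 (85 and 103 UMIs). In Ery 2 it was at 1.31 and 1.15 CPM, a level that free RNA at 20% of the UMIs could reach, and the 4 erythroblast groups together held 9 UMIs. Granulocytes had 12.2 and 11.1 CPM, megakaryocytes 9.09 and 3.94 CPM, and monocytes and Kupffer cells 4.42 and 4.52 CPM. The intervals of granulocytes and Ery 1 overlapped, as did those of Ery 1 and megakaryocytes, while HSPCs lay apart from all other groups in both libraries.

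The mix of Runx genes differed between lineages. Of 931 Runx UMIs in HSPCs, Runx1 made up 64.8% (95% interval 61.6 to 67.8%), Runx2 14.0% and Runx3 21.3%. In Ery 1 the shares were 70.1% Runx1, 1.07% Runx2 and 28.8% Runx3, of 653 UMIs. Runx2 was thus the minor gene there, whereas Runx3 kept a share whose interval (25.3 to 32.4%) lay above that of HSPCs (18.7 to 24.0%). Within each library alone, the Runx3 intervals of Ery 1 and HSPCs overlapped. The shares are parts of the same total, so a smaller Runx2 share by itself raises those of Runx1 and Runx3. In Ery 2, Runx1 made up 89.9% of 217 UMIs, and in erythroblasts 96.7% of 448 UMIs. Megakaryocytes likewise used Runx1 almost alone, with 93.1% (88.3 to 96.4%) of 175 UMIs. Granulocytes kept all 3 genes, with 75.5% Runx1, 12.0% Runx2 and, from 44 of 351 UMIs, Runx3 at a like share. Monocytes and Kupffer cells had 85.5% Runx1 (75.6 to 92.5%) of only 76 UMIs. In free RNA, Runx1 made up 67.3% (57.8 to 75.8%) of 113 Runx UMIs.

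**Figure D2:**
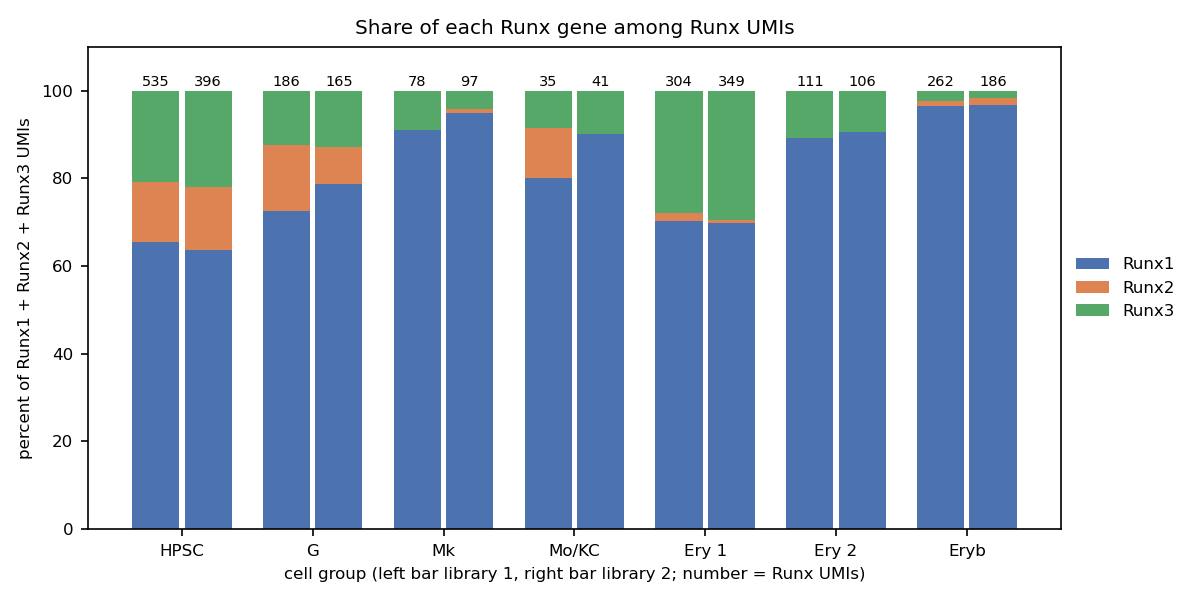
Runx1, Runx2 and Runx3 UMIs as a percentage of all Runx UMIs in 7 cell groups, with a left bar for library 1, a right bar for library 2 and the number of Runx UMIs above each. Over both libraries Runx1 is at 64.8% in HSPCs, 93.1% in megakaryocytes and 96.7% in erythroblasts, and granulocytes have 42 Runx2 and 44 Runx3 UMIs of 351.

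Single HSPCs often held transcripts of several Runx genes. Of 421 HSPCs, 191 had UMIs of 1 Runx gene, 129 of 2, 28 of all 3 and 73 of none. Of the 142 cells with Runx3, 34 had no Runx1 UMI, and of the 95 with Runx2, 30 had none. In Ery 1, 72 of 734 cells held 2 Runx genes and 1 held all 3. A missing UMI in a cell does not show that the transcript was absent at this depth.

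Cbfb, the common partner, was high in HSPCs, at 79.2 and 73.9 CPM in libraries 1 and 2, from 273 and 231 UMIs. Endothelial cells reached 87.8 and 68.8 CPM, from 23 and 39 UMIs in 46 cells. Monocytes and Kupffer cells had 91.4 and 56.5 CPM, from 62 and 50 UMIs. These 3 groups overlapped in their intervals. Granulocytes had 52.3 and 46.9 CPM and megakaryocytes 44.2 and 32.5 CPM, below HSPCs in both libraries. Ery 1 had 19.1 and 17.7 CPM and Ery 2 2.29 and 2.41 CPM, so Cbfb was lower in Ery 1 than in HSPCs and lower again in Ery 2. Over both libraries Ery 3 to Ery 6 were at 0.504, 0.410, 0.456 and 0.449 CPM, with overlapping intervals. In 7432 erythroblasts there were 27 Cbfb UMIs, or 0.452 CPM (0.298 to 0.657). Free RNA held more, at 17.2 and 9.69 CPM.

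Set beside Runx1, Cbfb made up 45.5% (42.6 to 48.5%) of the Runx1 and Cbfb UMIs in HSPCs, 43.5% in Ery 1 and 41.5% in granulocytes. The partner weighed less in megakaryocytes, at 29.1% (23.3 to 35.5%), and more in monocytes and Kupffer cells, at 63.3% (55.7 to 70.4%). Endothelial cells had nearly only Cbfb, with 62 UMIs beside 3 of Runx1. In Ery 2 the share was 17.7% (13.1 to 23.2%) and in erythroblasts 5.87% (3.90 to 8.43%). In free RNA it was 41.1% (32.5 to 50.1%). UMIs are not divided by transcript length, and capture may differ between genes, so these shares compare groups and not the amounts of the proteins.

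At the level of cells, 197 of 296 HSPCs with a Runx1 UMI (66.6%) also had a Cbfb UMI, beside 62.4% of those without Runx1. The share was 126 of 308 (40.9%) in Ery 1, 71 of 131 (54.2%) in granulocytes, 30 of 66 (45.5%) in megakaryocytes and 25 of 42 (59.5%) in monocytes and Kupffer cells. Cells without Runx1 held Cbfb in 28.4%, 33.3%, 20.3% and 59.7% in the same order. In Ery 2, 4 of 160 Runx1-positive cells (2.50%) and 3.74% of the others held Cbfb, and in erythroblasts 1 of 400 (0.25%) and 0.370% of the others. In Ery 1 the share was higher in Runx1-positive cells at medians of 26280 UMIs in these and 25973 in the others. In megakaryocytes and granulocytes the Runx1-positive cells were deeper, with medians of 17523 and 17310 UMIs against 5447 and 8805 in the others. These shares were not thinned, and the Runx1-positive cells of erythroblasts were shallower, with a median of 8853 UMIs against 16223 in HSPCs, while those of Ery 2 were deeper, with 26778.

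From HSPCs to Ery 1, 4 of the 5 members with at least 10 CPM in either group were lower by at least 2-fold in both libraries, against 13.6% of 7129 genes that met the same level. A member can meet the level through its higher group alone, so such counts are descriptions. Runx1 was 3.84-fold lower (3.39 to 4.34), by 4.70-fold in library 1 and 3.07-fold in library 2. Cbfb was 4.16-fold lower (3.62 to 4.78) and Runx3 3.07-fold lower (2.50 to 3.77). Runx2 was 54.1-fold lower (25.5 to 137), on 7 UMIs in Ery 1. The fifth, Cbfa2t3, was 1.30-fold lower (1.16 to 1.46) in CPM but 1.28-fold higher in UMIs per cell, since Ery 1 cells held more UMIs. No member was at least 2-fold higher, against 5.75% of all genes. The median over all genes tested was a log2 difference of 0.02.

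From Ery 1 to Ery 3, Cbfb differed by far more than Runx1. Most of either difference was already present in Ery 2, the later progenitors, where Runx1 was at 10.9 CPM over both libraries, against 11.1 CPM in Ery 3, and Cbfb at 2.35 CPM, against 18.4 CPM in Ery 1. Runx1 had 14.0 and 8.31 CPM in Ery 3, from 108 and 68 UMIs, and was 2.16-fold lower than in Ery 1 (1.81 to 2.58). That fold was 1.54 in library 1 and 3.16 in library 2. Cbfb had 2 and 6 UMIs in Ery 3 and was 36.6-fold lower (18.4 to 85.4), by 73.6-fold in library 1 and 24.1-fold in library 2. Runx3 was 51.9-fold lower (17.5 to 254), on 3 UMIs. Of the 4 members that met the level filter, Cbfb and Cbfa2t3 were at least 2-fold lower in both libraries, beside 31.7% of 6401 genes, and Runx1t1 was higher, beside 5.94%. The median of all genes was −0.65 on the log2 scale, and leaving globin UMIs out of the total would raise every value by 0.34.

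Within erythroblasts Runx1 had 9.81 and 5.11 CPM in Ery 4, 7.53 and 3.58 CPM in Ery 5, and 7.91 and 3.23 CPM in Ery 6. After thinning, 2.34% of Ery 4, 1.96% of Ery 5 and 1.74% of Ery 6 cells held a Runx1 UMI, beside 2.85% of hepatoblasts. The hepatoblast share rests on 8 UMIs and was 0.758% in library 1 and 4.48% in library 2. With thinning to 7200 UMIs it was 1.87%, beside 4.59%, 2.56% and 2.76% in Ery 4, Ery 5 and Ery 6. This order thus depends on the thinning. The Runx1 counts of Ery 5 (43) and Ery 6 (77) were within what free RNA at 20% of the UMIs could give, and those of Ery 3 and Ery 4 were not. The 20% is a set share, and lower limits for these groups, taken from Cbfb, are given below. As a share of UMIs that are not globin, Runx1 was at 11.5 CPM in Ery 2 and 14.3, 13.7, 14.4 and 17.0 CPM in Ery 3 to Ery 6. Counted per cell it went the other way, with 62.4 UMIs per 100 cells in Ery 1, 19.2 in Ery 2, 12.6 in Ery 3 and 3.22 in Ery 6. Cbfb went from 48.1 UMIs per 100 cells in Ery 1 to 4.13 in Ery 2 and 0.575 in Ery 3. The direction for Runx1 among erythroblasts thus depends on the scale, whereas the Cbfb values were below Ery 2 in each of them on all 3 scales. They rest on 8, 8, 4 and 7 UMIs in Ery 3 to Ery 6, and without globin UMIs the intervals of Ery 5 and Ery 6 overlap that of Ery 2. The Cbfb counts of Ery 2 to Ery 6 were all within what free RNA at 20% of the UMIs could give.

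Because free RNA holds both genes, the few Cbfb UMIs limit what free RNA could add. With the upper bound on the Cbfb count and the lower bound on Cbfb in free RNA, free RNA made up at most 11.3% of the UMIs in Ery 3. At that share, and at the upper bound on Runx1 in free RNA, it could have given 47.2 Runx1 UMIs, against 176 observed. In Ery 4 the same limits were 48.3 against 137, and in Ery 6 44.8 against 77. In Ery 5 the limit of 32.2 lay within the counting interval of the 43 observed, and in Ery 2 the limit of 168 lay just under the lower bound (169) of the 195 observed.

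**Figure D3:**
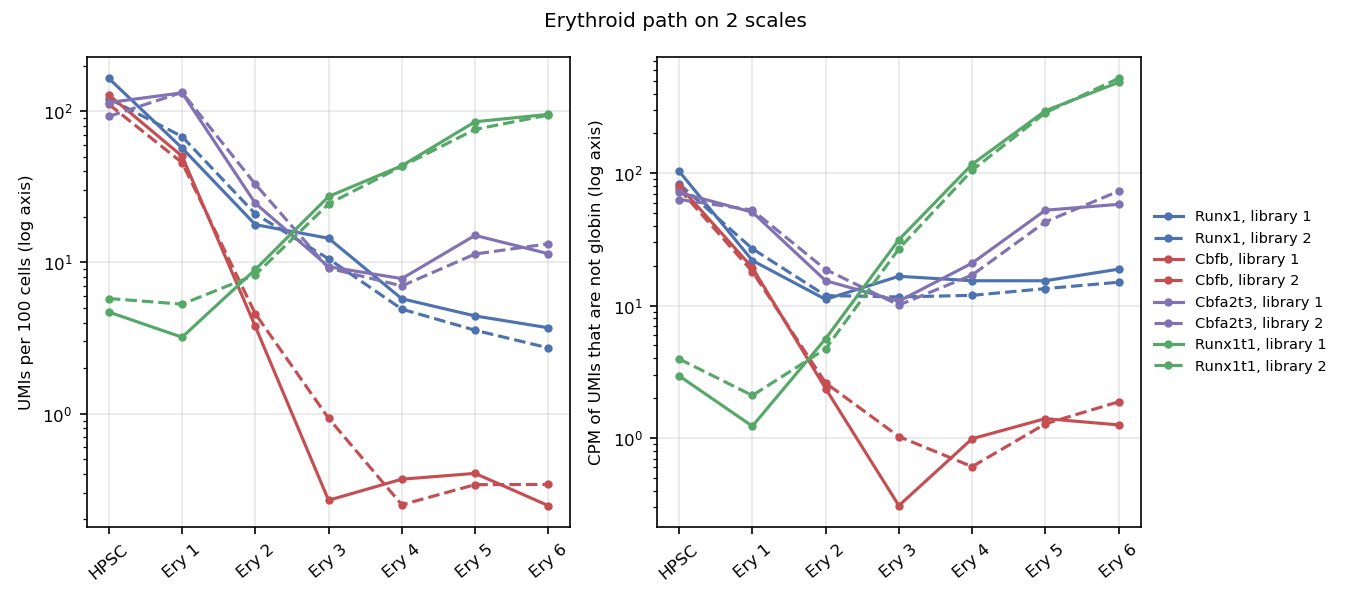
Runx1, Cbfb, Cbfa2t3 and Runx1t1 from HSPCs through Ery 1 to Ery 6 in each library, as UMIs per 100 cells (left, log axis) and as CPM of UMIs that are not globin (right, log axis). Cbfb goes from 120 UMIs per 100 cells in HSPCs to 0.575 in Ery 3, while Runx1 goes from 143 to 12.6 and Runx1t1 reaches 94.8 in Ery 6.

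Among the corepressors, Cbfa2t3 was the main gene of HSPCs, Ery 1, Ery 2, megakaryocytes, granulocytes, and monocytes and Kupffer cells. It had 70.5 and 61.4 CPM in HSPCs, 50.2 and 51.5 CPM in Ery 1, and 53.2 and 56.2 CPM in megakaryocytes. Over both libraries the interval of megakaryocytes overlapped those of HSPCs and of Ery 1, while HSPCs lay above Ery 1. Granulocytes had 34.4 and 31.6 CPM and monocytes and Kupffer cells 25.0 and 21.5 CPM. It was 6.26-fold lower in Ery 3 than in Ery 1 (5.20 to 7.58), at 9.10 and 7.21 CPM. In Ery 6 it was higher again, at 24.4 and 15.7 CPM, 2.33-fold above Ery 3 (1.89 to 2.89). Per 100 cells, Ery 3 held 9.27 Cbfa2t3 UMIs, Ery 4 7.42, Ery 5 13.1 and Ery 6 12.3.

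Runx1t1 was higher where Cbfa2t3 was lower, from Ery 1 to Ery 3, and then both were higher towards Ery 6. It was at 2.90 and 3.84 CPM in HSPCs and at 1.22 and 2.05 CPM in Ery 1, levels that free RNA alone, with 46.1 and 44.4 CPM, could give. Ery 3 had 26.5 and 19.2 CPM, from 204 and 157 UMIs. Ery 4 had 74.3 and 45.0 CPM, Ery 5 145 and 76.3 CPM, and Ery 6 204 and 112 CPM, from 1160 and 1109 UMIs. Each erythroblast group lay above the group before it in both libraries. From Ery 1 to Ery 3 the level was 14.1-fold higher (9.73 to 21.0), and from Ery 3 to Ery 6 a further 6.40-fold (5.72 to 7.17). Per 100 cells, Runx1t1 had 25.9 UMIs in Ery 3 and 94.8 in Ery 6, a 3.65-fold difference. A UMI was found in 38.3% of thinned Ery 6 cells, against 8.40% in Ery 3, 0.560% in Ery 1 and 2.02% in hepatoblasts. Without thinning, they were 1274 of 2394 cells in Ery 6, 279 of 1392 in Ery 3, 29 of 734 in Ery 1 and 3 of 64 hepatoblasts. The primitive erythroblasts, an earlier wave of red cells, had 44.9 and 40.4 CPM, between Ery 4 and Ery 3. Globin took 79.6% of their UMIs, against 48.7% in Ery 4 and 22.3% in Ery 3. Without globin UMIs they lay above Ery 4, so their place depends on the scale. Outside the blood lineages, endothelial cells had 20.5 CPM of Runx1t1 over both libraries, with an interval that overlapped that of Ery 3. This rests on 17 UMIs in 46 cells, of which free RNA could have given at most 3.74.

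Between Ery 3 and Ery 6, Cbfa2t3 and Runx1t1 were the 2 members with at least 10 CPM in either group in each library. Cbfa2t3 met that level through Ery 6 alone, and Runx1 fell short of it in library 2. Both tested members were at least 2-fold higher in Ery 6, beside 3.11% of 4983 genes, and neither was lower, beside 72.9%. Without globin UMIs, 14.2% of 5802 genes were higher and 37.7% lower, and the members tested were Runx1, which was not past 2-fold, and the same 2 genes, which were higher. With no minimum level, Cbfa2t2 was lower. The median of all genes was −2.23 on the log2 scale, and leaving out globin UMIs would raise every value by 1.42. Within the corepressor family, Cbfa2t3 made up 88.8% of UMIs in HSPCs, 84.9% in Ery 1, 62.1% in Ery 2, 24.4% in Ery 3 and 11.5% in Ery 6. Runx1t1 made up 4.49%, 2.70%, 19.0%, 68.2% and 88.3% in the same groups. As in HSPCs and Ery 1, the Runx1t1 UMIs of Ery 2 (88) were within what free RNA could give, 162 at 20% of the UMIs. In primitive erythroblasts Runx1t1 made up 89.1% and Cbfa2t3 9.78%, of only 92 UMIs of the family. In free RNA the family was 25.2% Cbfa2t3 and 70.1% Runx1t1.

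Cbfa2t2 was low in every group. Its highest level was in endothelial cells, at 11.4 and 12.4 CPM, on 10 UMIs, followed by megakaryocytes at 7.79 and 8.87 CPM and Ery 1 at 8.10 and 6.68 CPM, all overlapping. HSPCs had 6.96 and 2.88 CPM. Over both libraries its level in CPM was lower in each group from Ery 1 on, down to 0.527 and 0.303 CPM in Ery 6. Ery 3 to Ery 6 rest on 39, 28, 10 and 6 UMIs, and the intervals of neighbours among them overlapped. Without globin UMIs Ery 5 was not below Ery 4, so this order depends on the scale. Free RNA at 20% of the UMIs could have given the counts of Ery 5 and Ery 6, and 27.2 of the 28 UMIs of Ery 4. At the limit set by Cbfb it could have given 13.2 UMIs in Ery 4, under the counting interval of the 28 observed (18.6 to 40.5). For Ery 5 and Ery 6 those limits were 9.50 and 12.8 UMIs, beside 10 and 6 observed.

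**Figure D4:**
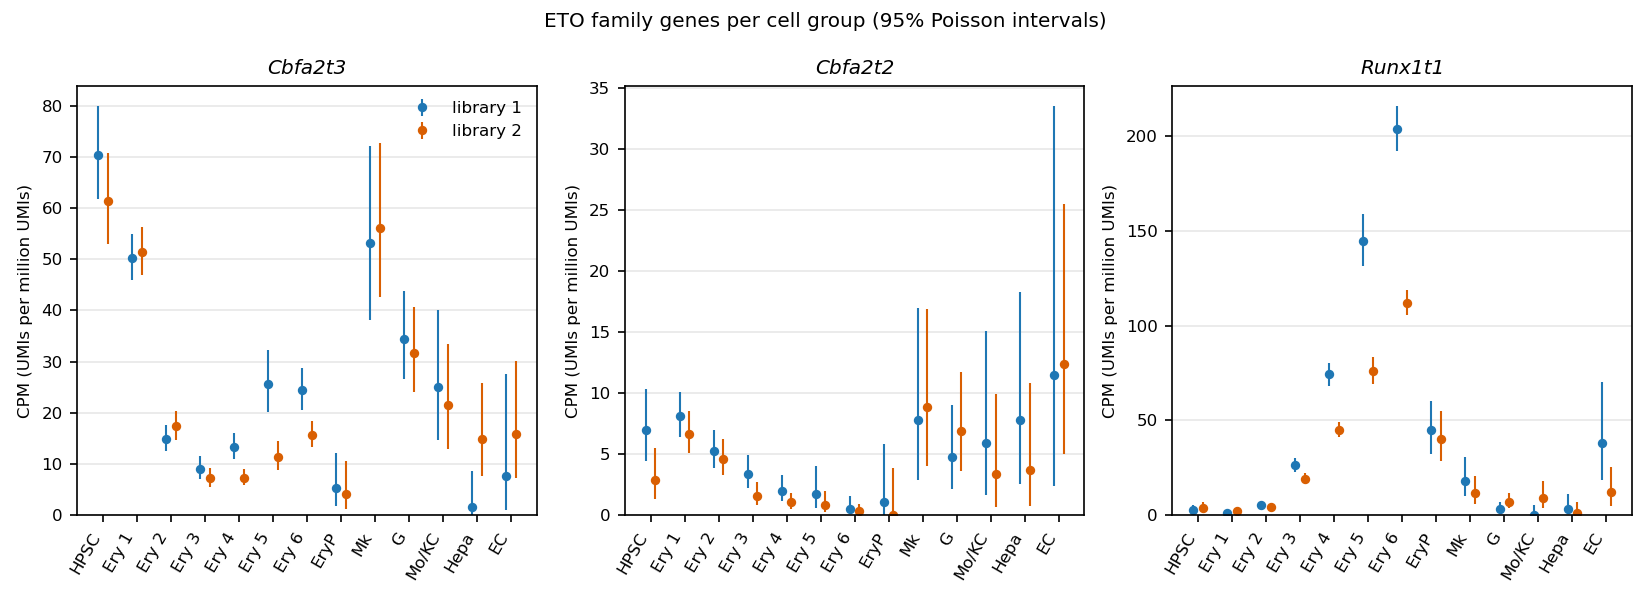
Levels of Cbfa2t2, Cbfa2t3 and Runx1t1 in the cell groups, in CPM, with a point for each library and bars for exact 95% Poisson intervals (counting error only). Cbfa2t3 is highest in HSPCs (66.2 CPM over both libraries) and Runx1t1 in Ery 6 (145 CPM).

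In megakaryocytes, Runx1t1 was at 18.2 and 11.8 CPM, 4.35-fold above HSPCs (2.37 to 8.06). It was the sole member of 6 tested that was at least 2-fold higher in both libraries, beside 9.22% of 7390 genes. Of the markers of mesenchyme, the collagen genes were high in this group as well, and Pdgfrb was not. Pdgfrb was at 4.48 CPM, beside 3.35 CPM in HSPCs and 4.83 CPM in hepatoblasts. Col1a1 and Col1a2, collagen genes of fibroblasts and stromal cells, were at 49.9 and 63.9 CPM in megakaryocytes, and 21 of the 135 cells held a UMI of either. Those 21 cells held 18 of the 26 Runx1t1 UMIs, 11 of 14 in library 1 and 7 of 12 in library 2. They had 489 CPM of Pf4, the platelet factor gene that defines the type, against 12440 CPM in the other 114 cells. That level came from 121 Pf4 UMIs in 3 of the 21 cells, all in library 1. Of the other 114 cells, 92 held a Pf4 UMI. Runx1t1 was at 72.7 CPM (43.1 to 115) in the 21 cells and 5.21 CPM (2.25 to 10.3) in the others, an interval that holds the level of HSPCs (3.35 CPM). The sole Runx2 UMI of the group also fell in a cell with collagen. Without these cells, Runx1 in megakaryocytes was at 99.6 CPM in place of 91.4, Runx3 at 7.16 CPM, Cbfa2t3 at 61.8 CPM and Cbfb at 34.5 CPM. Whether these cells are a further type, or droplets that caught more than 1 cell, was not tested.

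The other members of megakaryocytes were set against HSPCs in the same way. Runx1 had a ratio of megakaryocytes to HSPCs of 0.996 (0.833 to 1.19). Cbfb was 2.04-fold lower in megakaryocytes (1.58 to 2.68), but under 2-fold in library 1 (1.79). Runx3 was 4.89-fold lower (2.67 to 9.95), and Runx2 went from 130 UMIs to 1. Runx2 and Runx3 were the 2 members lower by at least 2-fold in both libraries, beside 7.71% of all genes. The median over all genes tested was −0.02 on the log2 scale.

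In granulocytes, Runx3, 2.59-fold lower than in HSPCs (1.86 to 3.68), was the sole member of 5 past 2-fold in both libraries, beside 5.62% of 7187 genes, and none was higher, beside 6.05%. Cbfa2t3 was 2.00-fold lower (1.64 to 2.47) over both libraries and 1.94-fold in library 2. Runx1 was 1.31-fold lower (1.13 to 1.52), Cbfb 1.54-fold (1.30 to 1.84) and Runx2 1.78-fold (1.25 to 2.59). The median over all genes was −0.20 on the log2 scale.

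The granulocyte group holds cells at different stages, and the members were read in each. Of the 3 T cell markers checked, Cd3d was at 84.1 and 29.0 CPM and Cd3g at 12.7 and 3.16 CPM in this group. Cd3e had no UMI. Whether the group also holds a further type of cell was not tested. Cells were divided by whether they held more UMIs of granule genes made early in maturation (Ctsg, Elane, Mpo, Prtn3) or of genes made late (Camp, Ltf, Ngp, S100a8, S100a9), which is a range and not a type, and 23 of the 287 cells lay near the dividing value. The 137 mainly early cells had 87.6 CPM of Runx1 (76.2 to 100.1), and the 150 mainly late cells 37.9 CPM (28.2 to 49.9). Runx3 was at 17.6 CPM in early cells, from 43 UMIs, and had 1 UMI in late cells. Cbfa2t3 was at 43.0 CPM in early and 14.9 CPM in late cells. Cbfb was at 51.6 CPM (43.0 to 61.4) in early and 46.1 CPM (35.4 to 59.1) in late cells, and the order differed between libraries. In library 1 early cells had 47.0 CPM and late cells 61.9 CPM, and in library 2 early cells had 56.1 CPM and late cells 30.03 CPM, with overlapping intervals in each library. The early cells held a median of 18545 UMIs and the late cells 7886.

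Monocytes and Kupffer cells had less Runx1 than HSPCs (2.21-fold, 1.71 to 2.90) beside a like level of Cbfb (ratio 1.07, 0.871 to 1.33). Runx2, Runx3 and Cbfa2t3 were the 3 members of 5 that were at least 2-fold lower in both libraries, beside 7.73% of 7378 genes. Runx3 was 6.73-fold lower (3.21 to 17.0), on 7 UMIs, and Cbfa2t3 2.87-fold (2.04 to 4.16), on 36 UMIs. No member was higher, beside 9.49%. The median over all genes was −0.13 on the log2 scale.

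Genes known as RUNX1 targets were described by a list of 11, chosen with earlier results of these data known. Several of them (Mpo, Elane, Csf1r, Pf4, Itga2b, Cd34) are also markers by which the cell types were checked, so high levels in their own type were given by the choice. From HSPCs to Ery 1, 4 of the 6 measured members were at least 2-fold lower in both libraries (13.6% of all genes) and 1 was higher (5.75%), with a median log2 difference of −4.46. Spi1, which encodes the myeloid regulator PU.1, went from 319 to 17.2 CPM, and Csf1r, the macrophage growth factor receptor gene, from 22.2 to 0.365 CPM. Cd34, a gene of progenitor surfaces, went from 377 to 6.21 CPM, while Itga2b, a platelet integrin gene, went from 7.45 to 21.8 CPM. From Ery 1 to Ery 3, Spi1, Mpo and Itga2b were lower, 3 of 4 measured (31.7% of all genes), with a median of −2.07.

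In megakaryocytes 4 of 9 targets were higher than in HSPCs (9.22% of all genes), among them Itga2b at 772 CPM and Alox12, a platelet lipoxygenase gene, at 328 CPM. There 4 were lower (7.71%), with Spi1 at 26.3 CPM and Mpo at 22.4 CPM, and the median was 1.10. In granulocytes 4 of 8 were higher (6.05%), including Mpo and Elane, genes of granule enzymes, and Gfi1 (10.8 to 28.5 CPM), and Cd34 was lower (5.62%), with a median of 1.08. In monocytes and Kupffer cells 4 of 7 were higher (9.49%), with Spi1 at 687 CPM and Csf1r at 340 CPM, and none was lower, with a median of 1.11. Between Ery 3 and Ery 6 only 1 target was measured, and it was not past 2-fold in both libraries.

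Partners of CBFA2T3 in the TAL1 complex were all measured in each contrast but the last. From HSPCs to Ery 1, 3 of 12 were higher (5.75% of all genes), Tal1 from 30.7 to 106 CPM, Gata1 from 13.4 to 165 CPM and Gfi1b from 26.8 to 101 CPM, and none was lower, with a median of 0.24. The same 3 genes were higher in megakaryocytes (9.22%), at 135, 242 and 164 CPM, with none lower and a median of 0.08. From Ery 1 to Ery 3, where Cbfa2t3 was 6.26-fold lower, 2 of 12 were lower (31.7%), Gata2 from 30.2 to 0.441 CPM and Irf2bp2 from 21.9 to 4.60 CPM, and none was higher, with a median of −0.17. In granulocytes Gata1 was higher (6.05%) and Gfi1b lower (5.62%), with a median of −0.60, and in monocytes and Kupffer cells 5 were lower (7.73%), with a median of −1.02 and with Gata2 at 3 UMIs. From Ery 3 to Ery 6, 5 of 10 were lower, a smaller share than the 72.9% of all genes, with a median of −1.51.

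Corepressors that bind ETO or RUNX proteins were a list of 12. Of 11 measured from HSPCs to Ery 1, where 13.6% of all genes were lower, Tle3 was lower (15.1 to 4.23 CPM) and none higher, with a median of −0.26. In megakaryocytes Tle4 was the sole one of 11 past 2-fold (median −0.21), and in granulocytes (median −0.27) and in monocytes and Kupffer cells (median −0.70) it was Kdm1a, a histone demethylase gene, each lower, where 7.71%, 5.62% and 7.73% of all genes were lower. From Ery 1 to Ery 3, Hdac3 and Tle1 were lower among 8 (31.7% of all genes), with a median of −0.83 against −0.65 of all genes. From Ery 3 to Ery 6 all 7 measured were lower (72.9%), with a median of −2.42, close to the −2.23 of all genes.

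Of 8 coactivators and modifiers of RUNX1, Fli1, a megakaryocyte and endothelial transcription factor gene, was lower from HSPCs to Ery 1 (50.4 to 11.1 CPM, 13.6% of all genes lower), with a median of −0.33 over 6. It was lower again in Ery 3, at 0.315 CPM, beside Prmt1 (488 to 122 CPM), an arginine methyltransferase gene, where 31.7% of all genes were lower. Hipk2, a kinase gene, was higher in Ery 3 (17.0 to 65.8 CPM), as were 5.94% of all genes, and the median over 5 was −0.48. Fli1 (166 CPM) and Hipk2 were higher in megakaryocytes (9.22% of all genes, median 0.11 over 6), and Hipk2 and Ets1 in granulocytes (6.05%, median −0.13 over 7). None of 6 was past 2-fold in monocytes and Kupffer cells (median −0.34), and Kmt2a and Prmt1 were lower from Ery 3 to Ery 6 (72.9%, median −1.43 over 4).

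Genes with the most similar course over the 13 groups were found by the correlation of log2(CPM + 1), taking the lower of the values of the 2 libraries, among 9458 genes. The groups share libraries, depth and globin content, so these are descriptions. Runx1 was most like Bin2 (r = 0.941), Kctd1 and Pik3cg. Runx3 was also most like Kctd1 (0.949), followed by Kif21b and Ikzf2. Runx2 was most like Tespa1 (0.899), Crispld2 and Satb1, and Cbfb like Cotl1 (0.980), Map7d1 and Cers5. Among the corepressors, Cbfa2t2 was most like Gpr180 (0.950), Gna12 and B4galt7, and Cbfa2t3 like Ptprcap (0.883), Elf1 and Dapp1. Runx1t1 was most like Ppp1r15a (0.904), a gene of the stress response, followed by Alas2 and Bnip3l, genes of heme synthesis and of mitochondrial clearance in red cells. Between members, Runx1 and Runx3 had r = 0.856, Runx1 and Cbfb 0.580, and Runx1 and Runx1t1 −0.55.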

How the data were processed

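The data are 2 technical replicate libraries of single cells from 1 wild-type C57BL/6 (C57BL/6J in the supplementary methods) mouse liver. The authors deposited raw UMI counts for each gene in each barcode, before and after cell calling. They also deposited a table that names the cluster and type of every cell, whose columns carry no unit. According to the methods and the submitters' processing notes, bcl2fastq 2, Cell Ranger 2.1.1, Seurat 3.2.0, the mm10 genome and a GRCm38 annotation were used, but the matrix header of library 1 names software version 3.0.0. Counts were not normalized.

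UMIs were summed per group and library and given as CPM with exact Poisson 95% intervals, as shares with exact Clopper-Pearson intervals, and as folds with exact conditional binomial intervals. The limit for a count of 0 was 3 counts. Thinned shares are the exact mean over all draws of 3600 UMIs. A gene counted as past the fold at 2-fold in the same direction in both libraries, among genes with at least 10 CPM in either group in each library. Barcodes with 1 to 50 UMIs were taken as free RNA. The summed library totals bear the precision, with 51969226 and 62738015 UMIs. Doublets had been sorted out by the authors before encapsulation and were not called again. With 1 liver, groups were not tested against each other and p-values are not reported.

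The members and lists were chosen with earlier results of these data known. Named are all members, the 3 genes most like each, and the genes of the 4 lists past the fold. A further gene of the list of RUNX1 targets is not reported here and was left out of its counts and medians. The contrast of Ery 3 with Ery 6, the scale of UMIs per cell and the megakaryocytes without collagen UMIs were added after values were seen, as was the limit on free RNA from Cbfb. Alternatives were each library alone, totals without globin, the mean over cells, a filter of 1000 genes and 10% mitochondrial UMIs, the 4% of cells with the most UMIs left out, other thinning, other minimum levels (20 CPM or none) and empty barcodes of up to 20 or 100 UMIs. The intervals, folds and thinning were tested on simulated counts with counting error only, so variation between cells of a group was not covered. Promoter windows are those of RefSeq for GRCm38.p6, which held 9 windows for 6 of the 7 members, and gene positions those of GENCODE vM21. The tools were scipy 1.17.1, pandas 2.3.3, numpy 2.4.6 and matplotlib 3.10.9 in Python 3.11.15. The flow cytometry, imaging and knockout work of the study was not analysed here.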

Additional observations from a re-analysis of the deposited data

Results flagged for a closer look

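Runx1t1 had 106 CPM (76.5 to 143), from 42 UMIs, in the 168 barcodes of library 1 that were not called as cells but held at least 1000 UMIs and 200 genes. These barcodes enter no comparison above. The level lay above that of free RNA in the same library, 46.1 CPM (37.1 to 56.6), and in library 2 the 3311 such barcodes had 59.2 CPM (53.5 to 65.3) beside 44.4 CPM (35.6 to 54.8) in free RNA.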

How the results depend on the processing

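Of 981 values recomputed under the alternatives, 792 moved by less than their counting interval, 187 moved by more and 2 changed sign. The sign changed for Cbfa2t3 from HSPCs to Ery 1, with a log2 fold of −0.38 in CPM and 0.36 in UMIs per cell, and for Runx1 from Ery 3 to Ery 6, with −1.17 in CPM and 0.26 without globin UMIs. Each change follows from the denominator alone. The share of Runx1 among Runx UMIs stayed within 63.6 to 65.6% in HSPCs, 74.4 to 75.4% in Ery, 91.0 to 94.8% in megakaryocytes and 72.6 to 78.8% in granulocytes under every alternative run for it. With each library left out in turn, Runx1 in HSPCs was at 80.6 to 102 CPM and Runx1t1 in erythroblasts at 62.9 to 98.0 CPM. The log2 folds over the same pair of libraries were −2.23 to −1.62 for Runx1 from HSPCs to Ery 1, −1.66 to −0.63 for Runx1 from Ery 1 to Ery 3, and 3.23 to 4.45 for Runx1t1 from Ery 1 to Ery 3. Runx1t1 in erythroblasts, at 77.2 CPM, became 155 CPM without globin UMIs, 93.4 CPM as a mean over cells, 56.1 CPM with the filter of 1000 genes and 10% mitochondrial UMIs, and 82.2 CPM without the 4% of cells with the most UMIs. The filter of 1000 genes and 10% mitochondrial UMIs kept 311 of 2394 Ery 6 cells but 1372 of 1392 Ery 3 cells, so it also changed the mix of erythroblasts. Without globin UMIs the Runx1 log2 fold from Ery 1 to Ery 3 was −0.77, and as a mean over cells the Cbfb fold from HSPCs to Ery 1 was −1.72. In UMIs per cell, the log2 folds from HSPCs to Ery 1 were −1.20 for Runx1 and −1.32 for Cbfb, and from Ery 1 to Ery 3 −2.30 for Runx1 and 2.62 for Runx1t1. No paired analysis was possible because the libraries come from 1 liver and no test between groups was made. Depth limits Runx2 and Runx3 in megakaryocytes, monocytes and Kupffer cells, and primitive erythroblasts, and all members but Cbfb in endothelial cells and hepatoblasts. Ery 2 and erythroblasts had more UMIs in all (17888830 and 59747662) than HSPCs (6573777). The upper bounds for Runx2 there were 0.206 and 0.219 CPM.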
